A study of Mus musculus with 2 samples.

Results

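Sbspon/Coch/Lef1 stromal cells are 146 of the 27383 barcodes past the quality limits (at least 500 detected genes, at least 1000 UMIs and at most 10% mitochondrial UMIs) in single-cell RNA libraries of mouse tibialis anterior muscle. A UMI is a counted transcript molecule. A barcode was a member when Sbspon, Coch and Lef1 together had at least 3 UMIs, at least 2 of the 3 genes were detected, and Pecam1, Ptprc, Sox10 and Pax7, which mark endothelial, immune, Schwann and satellite cells, all had 0 UMIs. The library labelled KO held 89 members of 17651 barcodes and the library labelled WT held 57 of 9732. KO and WT are the only genotype labels, and the altered gene, the cells in which it is altered, the promoter and the age are not given in the sources used here. Each of the 2 libraries pooled 10 muscles of 5 male mice, both carry the same batch number, and the suspension was stained to leave out dead cells, with no other selection given. The labels name the cells as fibro-adipogenic progenitors, the resident mesenchymal cells of muscle, and the muscle as ND, which is not spelled out. With 1 library per genotype no difference has a replicate check, no test was run, and every interval covers counting error only.

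The rule genes encode Sbspon (ENSMUSG00000032719), a secreted protein with a thrombospondin type I domain, Coch (ENSMUSG00000020953), the matrix protein cochlin of the inner ear, and Lef1 (ENSMUSG00000027985), a DNA-binding partner of beta-catenin. In canonical WNT signalling, a WNT ligand bound to a Frizzled receptor and its LRP co-receptor stabilises beta-catenin, which then acts with TCF and LEF factors on target genes. Several of these targets encode inhibitors that feed back on the pathway. In muscle, mesenchymal cells make the collagen scaffold around fibres, vessels and nerves, and IGF-I is one of the growth factors they secrete.

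By construction the 3 rule genes set these cells apart, so their levels are a description. Levels are given as CPM, the UMIs of a gene per 1000000 UMIs summed over a set of barcodes. Sbspon had 1590.3 CPM in the KO cells, with a 95% Poisson interval (exact) of 1505 to 1679, and 1411 CPM in the WT cells, with one of 1273 to 1560.4. Coch had 530.1 and 572 CPM, and Lef1 536 and 486 CPM, in KO and WT cells. In the comparison set of Dcn/Pdgfra fibroblasts, 685 barcodes of the KO library and 1119 of the WT library with at least 5 Dcn UMIs and a Pdgfra UMI, the same 3 genes lay between 1.01 and 8.52 CPM. Per barcode the sum of the 3 genes had a median of 22 UMIs and a maximum of 95 in KO members, against 9 and 44 in WT members, and total UMIs had medians of 8747 and 4689. All 3 genes were detected in 49 KO and 25 WT members, Sbspon and Lef1 alone in 25 and 19, Sbspon and Coch alone in 15 and 12, and Coch and Lef1 alone in 0 and 1.

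**Figure D1:**
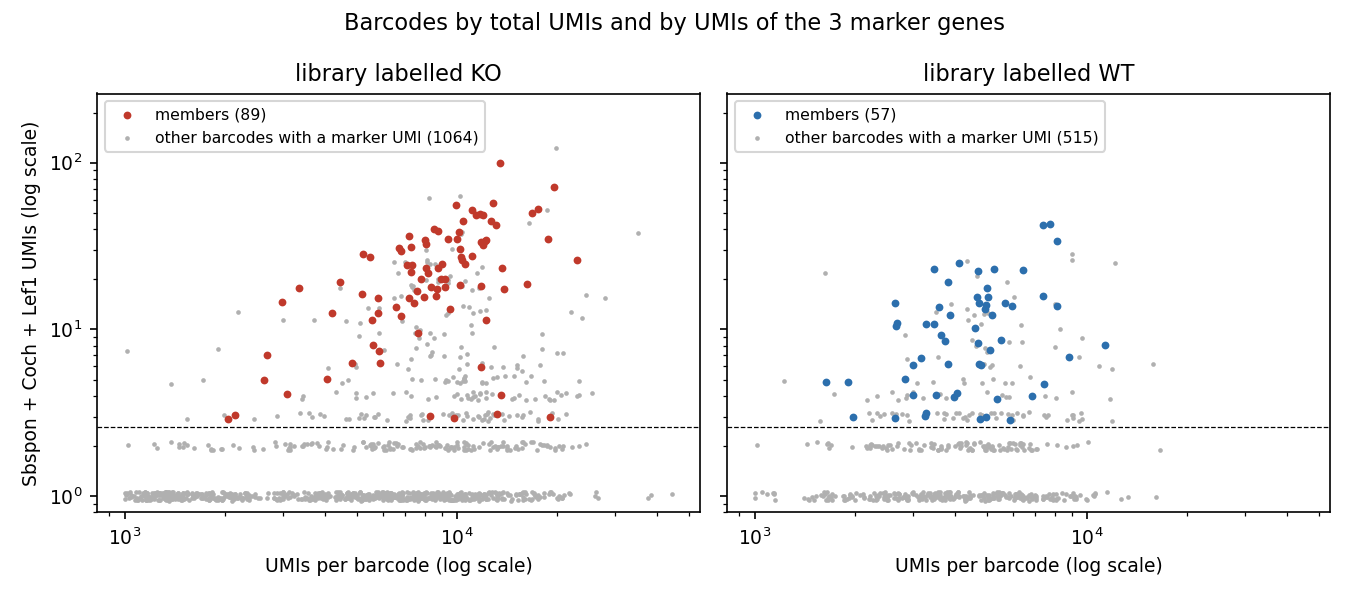
Sum of Sbspon, Coch and Lef1 UMIs (y axis, log scale, jittered) against total UMIs (x axis, log scale) for each barcode past the quality limits with at least 1 UMI of the 3 genes, in the KO library (left) and the WT library (right). Coloured points are members (89 KO, 57 WT), grey points are other barcodes, and the dashed line lies just below 3 UMIs; grey points above it had 1 gene only or a UMI of an excluded gene.

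Near the threshold, 8 KO and 13 WT members had a sum of 3 or 4 UMIs, and 13 KO and 7 WT barcodes stayed outside with 2 UMIs over 2 genes. Another 98 KO and 57 WT barcodes had at least 3 UMIs in 1 gene only, which was Sbspon in 85 and 46 of them. Of the barcodes that met the marker part of the rule, 16 in the KO library and 8 in the WT library were left out for an excluded gene, Pecam1 in 15 and 5 of them, and 0 in either library for Sox10. In a clustering of all barcodes made without the marker genes, 82 of 89 KO and 54 of 57 WT members fell in 1 cluster of 275 and 259 barcodes. The other barcodes of that cluster were led by Apod, Gpc3, Trf and Spp1. Of the 10 members elsewhere, 5 KO and 3 WT fell in a cluster led by Sfrp5, Tenm2, Cldn1, Itgb4 and Moxd1, 1 KO member in a cluster led by the smooth muscle genes Acta2 and Myh11, and 1 KO member in a cluster of 2417 barcodes that held 0 barcodes of the WT library. The 2 libraries shared 61 barcode sequences, 0 of them members, and the doublet caller Scrublet marked 0 KO and 2 WT members.

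Stromal genes were found in nearly all members. Dcn, the collagen-binding proteoglycan decorin, was detected in 88 of 89 KO and 56 of 57 WT members, and 87 and 55 members had at least 3 of the other stromal genes Lum, Col1a1, Col1a2, Col3a1, Mfap5, Fbln1, Gsn and Serping1. Dcn stood at 9986 and 11189 CPM in the KO and WT cells, against 17052 and 19390.0 CPM in KO and WT fibroblasts, which were chosen on it. Pdgfra, the growth factor receptor used to mark muscle mesenchyme, had 625 and 1222 CPM in the KO and WT cells, against 399 and 773 CPM in KO and WT fibroblasts, and a UMI in 84.3% of KO and 94.7% of WT members. Adipocyte markers had 0 UMIs in both, and the tendon factor Scx was also at 0. Immune markers summed to 15.8 and 7.43 CPM in KO and WT cells, and no member had UMIs of 2 immune genes. Endothelial markers summed to 57.0 and 59.4 CPM in KO and WT cells, and 8 KO and 2 WT members had at least 2 of them. That is 8.99% of KO and 3.51% of WT members, against 5.99% and 0.894% of KO and WT fibroblasts. The rule already left out barcodes with a UMI of Pecam1 or Ptprc, so low levels of both kinds are partly fixed in advance. Some muscle transcripts were concentrated in single barcodes. A single KO member held 280 of the 312 smooth muscle marker UMIs of the KO cells, and a single WT member held 305 of the 659 myofibre marker UMIs of the WT cells. Myofibre markers of the KO cells were spread out, with at most 12 of 128 UMIs in 1 member. At least 2 of them were found in 30.3% of KO members and 29.1% of KO fibroblasts.

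The comparison with the fibroblasts asked which other genes set the Sbspon/Coch/Lef1 cells apart from the main fibroblasts of the muscle. The ratio was the log2 of (CPM + 5) in the cells over that in the fibroblasts of the same library, and a gene counted as higher or lower when it was at least 2-fold apart in the same direction in both libraries. Of 6959 genes past the floors (20 CPM in 1 of the 2 sets and 20 UMIs over both, per library), 575 were higher (8.26%) and 593 were lower (8.52%). Counts for the gene lists below are read against these shares, and no list was tested. Scaling by median ratios in place of totals moved the log2 levels of the cells by -0.05 in the KO library and -0.21 in the WT library, and gave 488 genes higher and 648 lower. Among the genes named below as higher, Nr2f2 was under 2-fold in the KO library with that scaling, and Wnt5a, Sox9 and Cxcl14 were under it in the WT library.

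The log2 ratios of the 25 genes furthest above the fibroblasts lay between 4.32 and 6.28 in the KO library and between 4.33 and 6.46 in the WT library. Ncmap (ENSMUSG00000043924), a membrane protein of noncompact myelin, came first, with 422 and 512 CPM in the KO and WT cells, against 0.495 and 0.866 CPM in KO and WT fibroblasts. It was found in 60 of 89 KO and 34 of 57 WT members. Gjb1, the gap junction protein connexin 32 of myelinating Schwann cells and liver, had 94.6 CPM in KO cells and 145 CPM in WT cells and 0 UMIs in the fibroblasts of both libraries, which is at least 255-fold higher in the KO library and 334-fold higher in the WT library with 3 UMIs allowed to the fibroblasts. S100b, a calcium-binding protein used as a glial marker, had 161 and 342 CPM in KO and WT cells, against 2.10 and 7.94 CPM in KO and WT fibroblasts. Adgrg6, an adhesion receptor needed for myelination by Schwann cells, had 233 and 264 CPM in KO and WT cells, against 4.08 and 4.91 CPM in KO and WT fibroblasts.

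Of the same 25 genes, Nlgn1, the synaptic adhesion protein neuroligin 1, had 848 and 992 CPM in the KO and WT cells, against 24.4 and 17.9 CPM in KO and WT fibroblasts. Gad1, the enzyme that makes the transmitter GABA, had 194 and 227 CPM in KO and WT cells, against 0.866 and 1.01 CPM in KO and WT fibroblasts. Fxyd6, a regulator of the sodium pump, had 1293 and 1849 CPM in KO and WT cells, against 38.4 and 41.0 CPM in KO and WT fibroblasts. It was the most widely detected of the 25, in 80 of 89 KO and 55 of 57 WT members. Kcnq3, a potassium channel, Ano2, a calcium-activated chloride channel, Clstn2, a synaptic calsyntenin, and Sorcs3, a sorting receptor of neurons, had log2 ratios between 4.33 and 5.47 over both libraries.

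Further genes among the 25 were Postn and Stra6. Postn, the matrix protein periostin, had 1195 and 962 CPM in KO and WT cells, against 49.0 and 27.9 CPM in KO and WT fibroblasts. Stra6, the cell-surface receptor for retinol-binding protein, had 172 and 167 CPM in KO and WT cells, against 3.46 and 3.18 CPM in KO and WT fibroblasts. Aldh1a7, an aldehyde dehydrogenase, Prdm1, a transcriptional repressor, Corin, the protease that activates atrial natriuretic peptide, Scube1, a secreted EGF-repeat protein, and Chst9, a sulfotransferase, had log2 ratios between 4.44 and 6.09. Tmem117, Ociad2, Plekhb1, Klrb1a, Fbn2 and Apcdd1 were also among the 25.

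These transcripts were not spread evenly over the suspension. With every barcode thinned to 2000 UMIs, Ncmap had a UMI in 40.4% of KO and 50% of WT members, against 0.152% and 0.0927% of KO and WT fibroblasts and 0.254% and 0.217% of KO and WT endothelial barcodes, which should lack it. Unthinned, the shares were 67.4% and 59.6% of KO and WT members, and 0.552% and 0.293% of KO and WT endothelial barcodes, whose median depths were 5011.5 and 2979.5 UMIs. Thinning left out 0 KO and 3 WT members.

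**Figure D2:**
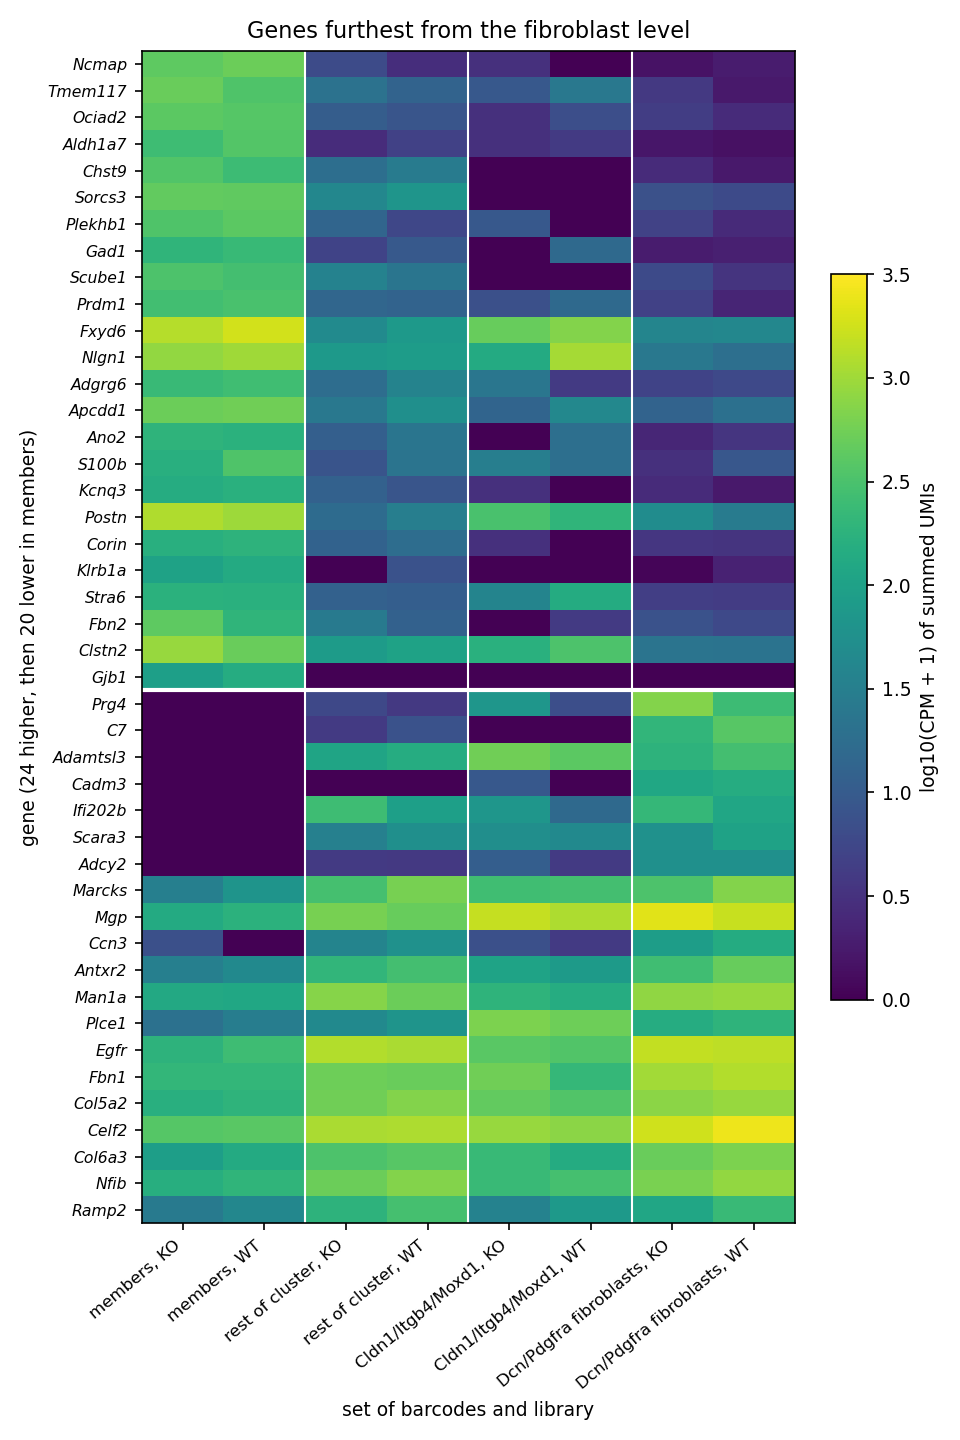
Summed levels, as log10(CPM + 1), of 24 of the 25 genes furthest higher (above the white line) and the 20 furthest lower (below it) in members than in Dcn/Pdgfra fibroblasts, in 4 sets of barcodes of each library. The higher genes are at 94.6 CPM or more in members of both libraries, and 7 of the lower genes have no UMI there.

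Among the 20 genes furthest below the fibroblasts, 7 had 0 UMIs in all 146 cells. These were Prg4, the lubricating proteoglycan lubricin, C7, a complement component, Adamtsl3, Cadm3, Ifi202b, Scara3 and Adcy2. Prg4 stood at 716 CPM in KO fibroblasts and 250.4 CPM in WT fibroblasts. With 3 UMIs allowed to the Sbspon/Coch/Lef1 cells, they were at least 197-fold lower in the KO library and 22.5-fold lower in the WT library. C7 stood at 200.3 and 387 CPM in KO and WT fibroblasts, and the KO and WT cells were at least 55.1-fold and 34.7-fold lower. The other 13 were measured at low levels. Egfr, the epidermal growth factor receptor, had 182 and 256 CPM in KO and WT cells, against 1514 and 1397 CPM in KO and WT fibroblasts, and Mgp, a calcification inhibitor, had 137 and 175 CPM in KO and WT cells, against 2186 and 1587 CPM in KO and WT fibroblasts. Marcks, Ccn3, Antxr2, Man1a, Plce1, Fbn1, Col5a2, Celf2, Col6a3, Nfib and Ramp2 had log2 ratios between -4.86 and -1.94.

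Targets and feedback inhibitors of the WNT pathway were higher in the Sbspon/Coch/Lef1 cells than in fibroblasts more often than lower. Of 15 genes on the list, 10 passed the floors, and 6 of them were higher and 3 lower. The medians of the 10 were 1.71 in the KO library and 2.37 in the WT library, against -0.07 and 0.01 over all genes past the floors. Apcdd1, a membrane protein that inhibits WNT receptors, had 514 CPM in KO cells and 553 CPM in WT cells, against 11.9 and 18.6 CPM in KO and WT fibroblasts. Per barcode Apcdd1 had a median of 417 CPM and a maximum of 4010 CPM in KO members, against 491 and 2010 CPM in WT members, so most members carried it in both libraries. Notum, an enzyme that removes the lipid of WNT ligands, had 137 and 85.4 CPM in KO and WT cells, against 0.619 and 0.578 CPM in KO and WT fibroblasts. Nkd2 and Nkd1, which bind Dishevelled and dampen WNT signalling, had 303 and 195 CPM in KO cells and 230 and 145 CPM in WT cells, and no more than 12.5 CPM in the fibroblasts.

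Axin2, a scaffold of the complex that degrades beta-catenin, had 30.3 and 59.4 CPM in KO and WT cells, against 3.34 and 4.33 CPM in KO and WT fibroblasts, and Bambi, a decoy receptor for TGF-beta family ligands, had 113 and 115 CPM in KO and WT cells, against 41.3 and 26.0 CPM in KO and WT fibroblasts. Bambi rested on few barcodes, with 21.5% of its UMIs in 1 KO member and 48.4% in 1 WT member. Znrf3, a ligase that removes Frizzled receptors, was 2-fold higher in the KO library only, with log2 ratios of 1.18 and 0.82. The growth-related genes Myc and Ccnd1 were lower. Myc had 52.2 and 59.4 CPM in KO and WT cells, against 336 and 225 CPM in KO and WT fibroblasts. The third lower gene, Dkk2, a secreted WNT antagonist, had 0 UMIs in KO cells and 1 UMI in WT cells, against 44.8 and 60.6 CPM in KO and WT fibroblasts.

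WNT ligands and receptors were mixed. Of 11 ligands only 3 passed the floors, and 2 of them were higher. Wnt5a had 54.6 and 85.4 CPM in KO and WT cells, against 14.97 and 37.1 CPM in KO and WT fibroblasts, and Wnt9a had 47.3 and 66.8 CPM in KO and WT cells, against 8.04 and 13.0 CPM in KO and WT fibroblasts. Among 10 receptors and co-factors past the floors, 4 were higher and 1 lower, against 8.26% and 8.52% of all genes. Rspo1, a secreted protein that strengthens WNT signals, had 65.5 and 141 CPM in KO and WT cells, against 1.86 and 0.722 CPM in KO and WT fibroblasts. Ror2, a receptor for Wnt5a, had 297 and 312 CPM in KO and WT cells, against 48.3 and 49.2 CPM in KO and WT fibroblasts. Lrp4, also the agrin receptor of the neuromuscular junction, had log2 ratios of 2.64 and 2.75, and Fzd2 had 1.78 and 1.38, in the KO and WT libraries.

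The lower receptor was Fzd4, with 4 UMIs in KO cells and 0 in WT cells. Of 3 secreted inhibitors past the floors, Dkk3 was higher, with 226 and 186 CPM in KO and WT cells, against 6.93 and 8.09 CPM in KO and WT fibroblasts, whereas Sfrp1 and Dkk2 were lower. Apart from Lef1, the TCF and LEF factors, beta-catenin and their partners were near the fibroblast level, with 0 of 10 genes higher and 1, the co-repressor Tle3, lower. Ctnnb1, beta-catenin itself, had 171 and 156 CPM in KO and WT cells, against 155 and 131 CPM in KO and WT fibroblasts. Tcf7 stayed under the floor, at 14.6 and 29.7 CPM in KO and WT cells.

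BMP pathway genes split in both directions. Of 14 past the floors, 3 were higher and 4 lower, against 8.26% and 8.52% of all genes past the floors. The medians were -0.57 and -0.35 in the KO and WT libraries, against -0.07 and 0.01 over all genes. Bmp7, a secreted ligand, had 505 and 394 CPM in the KO and WT cells, against 16.2 and 15.02 CPM in KO and WT fibroblasts, and it had a UMI in 79 of 89 KO and 42 of 57 WT members. Id1, a target of BMP signals, had 366 and 427 CPM in KO and WT cells, against 47.1 and 24.0 CPM in KO and WT fibroblasts, and Bmpr1b, a type I receptor, had log2 ratios of 2.18 and 2.20. The ligands Bmp5 and Bmp2, the ligand Gdf10 and the modulator Bmper were the 4 lower ones. Bmp5 stood at 2.43 and 22.3 CPM in KO and WT cells, against 257 and 341 CPM in KO and WT fibroblasts, with its UMIs in 1 KO and 2 WT members. Id3 had log2 ratios of 0.90 and 1.47 and so passed 2-fold in the WT library only.

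**Figure D3:**
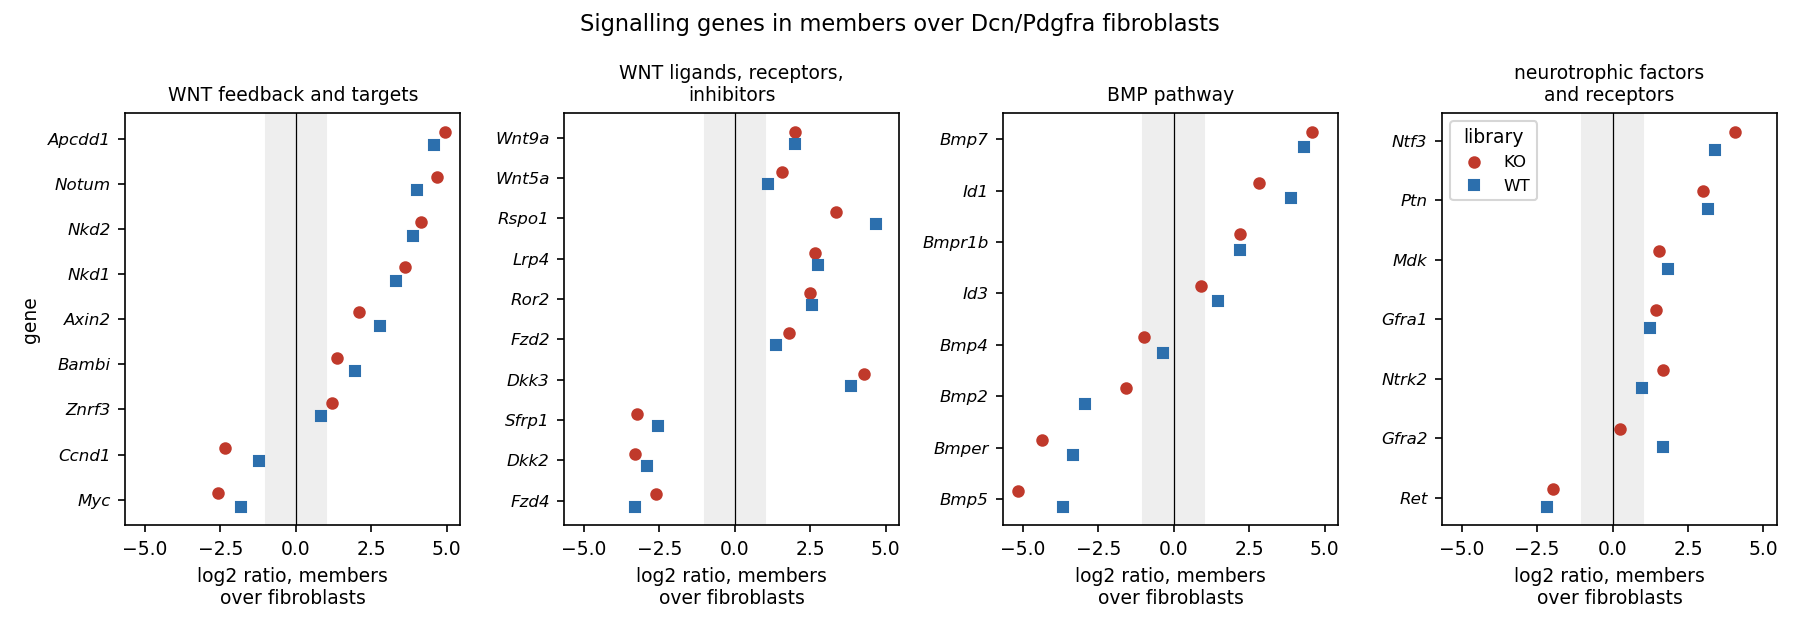
Log2 ratio of members over Dcn/Pdgfra fibroblasts (x axis) for genes of 4 groups named in the text, in the KO library (circles) and the WT library (squares); the grey band marks less than 2-fold. Apcdd1, Notum, Nkd2, Bmp7 and Dkk3 lie at 3.87 or above in both libraries, and Bmp5, Dkk2 and Fzd4 lie at -2.63 or below.

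Neurotrophic genes were higher more often than lower, while 8.26% of all genes were higher and 8.52% lower. Of 7 neurotrophic genes past the floors, 4 were higher and 1, the GDNF receptor kinase Ret, was lower, with medians of 1.55 and 1.67 in the KO and WT libraries. Ntf3, the neurotrophin NT-3, had 252 and 401 CPM in KO and WT cells, against 10.5 and 33.8 CPM in KO and WT fibroblasts, and was found in 55 of 89 KO and 27 of 57 WT members. Ptn, the heparin-binding factor pleiotrophin, had 438 and 687 CPM in KO and WT cells, against 50.2 and 72.6 CPM in KO and WT fibroblasts. Mdk, its relative midkine, had log2 ratios of 1.55 and 1.83, and Gfra1, a GDNF co-receptor, had 1.45 and 1.25. Endothelial barcodes also carried Ntf3, with a UMI in 16.5% of those of the KO library and 12.8% of those of the WT library.

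Markers of the nerve compartments were then set side by side, because several leading genes are known from nerve. Of 4 endoneurial mesenchyme markers past the floors, Sox9 and Etv1 were higher and Meox1 was lower. All markers of the endoneurial list summed to 1020 and 921 CPM in KO and WT cells, against 252 and 300 CPM in KO and WT fibroblasts. The other KO and WT barcodes of the main cluster had 534 and 776 CPM, so these cells shared part of that signal with their neighbours. Etv1, an ETS transcription factor, had 585 and 642 CPM in KO and WT cells, against 41.7 and 67.4 CPM in KO and WT fibroblasts, and was present in 80 of 89 KO and 52 of 57 WT members. Sox9 had 292 and 167 CPM in KO and WT cells, against 58.5 and 70.8 CPM in KO and WT fibroblasts, and Osr2 differed by less than 2-fold in both libraries. Among Schwann cell markers, only Ncmap and S100b passed the floors. Mbp, a myelin protein, had 1 UMI in KO cells and 0 in WT cells, and Sox10 was at 0 by the rule. The list summed to 588 and 865 CPM in KO and WT cells, nearly all of it Ncmap and S100b. At least 2 Schwann cell markers were found in 42.7% of KO and 40.4% of WT members, against 0.146% and 0.0894% of KO and WT fibroblasts, but at least 3 were found in only 3 KO and 2 WT members.

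The perineurial markers Cldn1, Itgb4 and Slc2a1 were higher than in fibroblasts. Slc2a1, the glucose transporter GLUT1, had 176 and 134 CPM in KO and WT cells, against 46.4 and 19.1 CPM in KO and WT fibroblasts. In 71 KO and 91 WT barcodes with at least 3 UMIs over Cldn1, Itgb4 and Moxd1 and at least 2 of these genes, a set defined after the data were seen, Slc2a1 had 919 and 663 CPM. Itgb4, the integrin of hemidesmosomes, lay mostly in the members outside the main cluster, and its mean log2 ratio was -0.03 in members with all 3 rule genes. The 7 KO members there held 58 Itgb4 UMIs and the 3 WT members 9, against 2 and 5 UMIs in the 82 KO and 54 WT members of the main cluster. Cldn1, a tight junction protein, was more widely spread, in 50 of 89 KO and 34 of 57 WT members.

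Mesenchymal transcription factors differed in both directions, with 6 of 33 genes past the floors higher and 11 lower. Over all genes past the floors the shares were 8.26% and 8.52%. Beside Sox9 and Etv1, the higher ones were Tbx18, Sox6, Foxd1 and Nr2f2. Tbx18, a T-box factor, had 121 and 115 CPM in KO and WT cells, against 14.2 and 12.9 CPM in KO and WT fibroblasts. Foxd1, a forkhead factor, had 76.4 and 63.1 CPM in KO and WT cells, against 6.81 and 5.78 CPM in KO and WT fibroblasts. The lower ones included Prrx1, a limb mesenchyme factor, with log2 ratios of -1.44 and -2.49, Tbx15 with -1.80 and -2.10, Ebf1 with -1.46 and -1.78, and Msx1, which had 0 UMIs in these cells. Hox genes did not pass the floors in either set.

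Ion channels and transporters had 8 genes higher and 4 lower of 15 past the floors, where 8.26% of all genes were higher and 8.52% lower. The median of the list, 1.40 and 1.32 in the KO and WT libraries, was below 0 as a mean of both libraries in members with all 3 rule genes, after thinning, and with no floor. Cacna1d, an L-type calcium channel, had 183 and 115 CPM in KO and WT cells, against 3.34 and 7.94 CPM in KO and WT fibroblasts. Trpm3, Slc1a3 (a glutamate transporter), Kcnd2, Kcnk2 and Gjb2 were among the other higher ones, but Gjb2, the gap junction protein connexin 26, was found in only 5 KO and 3 WT members and was below the fibroblasts in those of the main cluster, with a mean log2 ratio of -0.41. Gja1, connexin 43, was lower, with 43.7 and 74.3 CPM in KO and WT cells, against 380.1 and 408 CPM in KO and WT fibroblasts. Axon guidance genes had 4 of 22 higher, Plxna2, Robo2, Efnb1 and Epha7, and 6 lower, among them Slit3 at 18.2 and 37.1 CPM in KO and WT cells, against 926 and 848 CPM in KO and WT fibroblasts.

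Genes of the collagen scaffold were mostly lower in the Sbspon/Coch/Lef1 cells. Of 17 fibrillar collagen and processing genes past the floors, 13 were lower and 0 higher, with medians of -2.04 and -2.28 in the KO and WT libraries. Col3a1, the chain of type III collagen, had 161 and 342 CPM in KO and WT cells, against 1629.6 and 3384 CPM in KO and WT fibroblasts. Col1a2, a chain of type I collagen, had 365 and 486 CPM in KO and WT cells, against 1398 and 2824 CPM in KO and WT fibroblasts. Lox, which cross-links collagen, had log2 ratios of -2.65 and -4.17. Col1a1 had log2 ratios of -0.90 and -1.46 and so was 2-fold lower in the WT library only.

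Among collagens that do not form fibrils some were higher, but more were lower. Of 19 network and fibril-associated collagens past the floors, 4 were higher and 8 lower, against 8.26% and 8.52% of all genes. The medians were -0.39 and -1.52 in the KO and WT libraries. Col18a1, the basement membrane collagen that holds endostatin, had 918 and 624 CPM in KO and WT cells, against 76.6 and 62.7 CPM in KO and WT fibroblasts, and was found in 84 of 89 KO and 49 of 57 WT members. Col28a1, a collagen known from peripheral nerve, had 549.5 and 509 CPM in KO and WT cells, against 27.0 and 14.7 CPM in KO and WT fibroblasts. Col9a2, a cartilage collagen, had 391 and 316 CPM in KO and WT cells, against 15.3 and 9.82 CPM in KO and WT fibroblasts. Col26a1 was the fourth, with log2 ratios of 1.25 and 1.39. The type IV chain Col4a1, the 3 type VI chains Col6a1, Col6a2 and Col6a3, and Col14a1 were among the 8 lower ones.

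Proteoglycan and hyaluronan genes had 3 higher and 8 lower of 17, against shares of 8.26% and 8.52% over all genes. Vcan, the large proteoglycan versican, had 2509.8 and 2224 CPM in KO and WT cells, against 870.2 and 464 CPM in KO and WT fibroblasts. Has2, a hyaluronan synthase, had 745 and 449 CPM in KO and WT cells, against 130.3 and 147 CPM in KO and WT fibroblasts, while its relative Has1 was lower, with log2 ratios of -1.60 and -1.54. Gpc1, a heparan sulfate proteoglycan of the cell surface, had log2 ratios of 3.87 and 3.84. The small leucine-rich proteoglycans Ogn, Aspn, Prelp, Fmod, Bgn and Lum made up 6 of the 8 lower genes. Kera, of the same family, was lower too, with 0 UMIs in members of both libraries.

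Matricellular and elastic fibre genes had 4 higher (Postn, Sparcl1, Smoc1 and Fbn2) and 12 lower of 26. The 2 fibrillins differed in direction. Fbn2, the fibrillin typical of developing tissue, had 421 and 197 CPM in KO and WT cells, against 6.56 and 4.91 CPM in KO and WT fibroblasts, whereas Fbn1 had 206 and 204 CPM in KO and WT cells, against 1038 and 1267 CPM in KO and WT fibroblasts. Mfap5, a microfibril protein, had 26.7 and 29.7 CPM in KO and WT cells, against 580.2 and 604 CPM in KO and WT fibroblasts. Basement membrane genes had 6 of 9 lower, complement genes 7 of 11, and metalloproteases and their inhibitors 11 of 18, with 1, Adam12, higher. Of all genes past the floors 8.52% were lower and 8.26% higher.

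**Figure D4:**
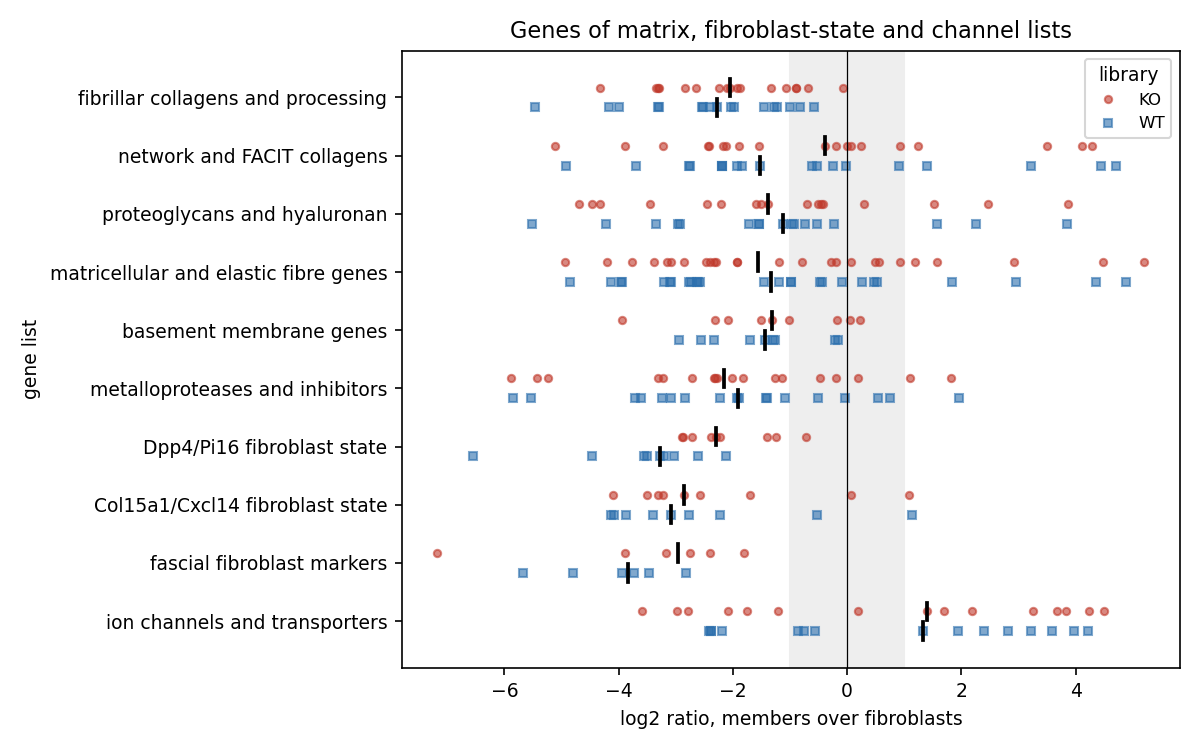
Log2 ratio of members over Dcn/Pdgfra fibroblasts (x axis) for each gene past the floors on 10 gene lists, in the KO library (circles) and the WT library (squares); black bars are list medians and the grey band marks less than 2-fold. Fibroblast-state and fibrillar collagen genes lie mostly below -1, and ion channel genes lie on both sides of 0.

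Markers of known fibroblast states were largely low. Of 9 genes of the Dpp4/Pi16 state past the floors, 8 were lower and 0 higher, and all 6 fascial fibroblast markers were lower. Of 9 genes of the Col15a1/Cxcl14 state, 7 were lower, among them Smoc2 at 465 and 405 CPM in KO and WT cells, against 3405 and 3485 CPM in KO and WT fibroblasts. Col15a1 itself, a collagen of basement membrane zones, was less than 2-fold from the fibroblasts, with 739 and 576 CPM in KO and WT cells, against 703 and 833 CPM in KO and WT fibroblasts. The higher gene was Cxcl14, a chemokine, with 6483 and 5841 CPM in KO and WT cells, against 3065 and 2662 CPM in KO and WT fibroblasts. Its log2 ratios of 1.08 and 1.13 lie near the 2-fold limit, and with scaling by median ratios they were 1.03 and 0.92. Il33, a cytokine released on injury, was the other chemokine or cytokine gene that was higher, with 549.5 and 568 CPM in KO and WT cells, against 258 and 200.0 CPM in KO and WT fibroblasts. In members with all 3 rule genes its mean log2 ratio was -0.36.

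Genes of dissociation stress, which rise while tissue is digested, had 4 of 22 higher (Ier2, Ier3, Nr4a1 and Btg2) and 1 lower (Myc), with medians of 0.21 and 0.18. Of all genes past the floors, 8.26% were higher and 8.52% lower. In the IGF axis, 1 of 15 genes was higher, near the share of all genes, and 8 were lower. The higher one, Stc2, an inhibitor of the protease pappalysin, had 64.3 and 85.4 CPM in KO and WT cells, against 2.23 and 2.45 CPM in KO and WT fibroblasts. The binding proteins Igfbp5 and Igfbp7 were lower, with log2 ratios of -1.72 and -2.63, and of -2.36 and -2.75. Igf1r, the receptor, had 427 and 331 CPM in KO and WT cells, against 398 and 239 CPM in KO and WT fibroblasts.

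The leading genes were also higher against closer neighbours. The other 150 KO and 178 WT barcodes of the main cluster, without excluded genes, gave 403 of 6707 genes higher in the Sbspon/Coch/Lef1 cells (6.01%) and 420 lower (6.26%). All 25 leading genes were among the higher ones there, and 22 of 25 were higher against the Cldn1/Itgb4/Moxd1 barcodes too, where 426 of 5424 genes were higher (7.85%) and 443 lower (8.17%). The exceptions were Nlgn1, Stra6 and Clstn2. Nlgn1 had 992 CPM in the WT Sbspon/Coch/Lef1 cells, against 1068 CPM in the WT Cldn1/Itgb4/Moxd1 barcodes. Apcdd1, at 514 and 553 CPM in the KO and WT cells, had 12.3 and 41.8 CPM in the KO and WT Cldn1/Itgb4/Moxd1 barcodes. The 20 genes furthest below the fibroblasts set these cells apart from close neighbours less often. Only 15 of the 20 counted as lower against the rest of the cluster, all but Prg4, Cadm3, Adcy2, C7 and Plce1. Against the Cldn1/Itgb4/Moxd1 barcodes 4 of the 20 counted as lower. Since members were picked for Lef1, and clusters were made from the same counts, these counts describe the sets and are not tests.

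Members were also split by whether Coch was detected, a split chosen after the values were seen. Coch is a rule gene, so members without it needed Sbspon and Lef1, and 20 of the 25 KO and 16 of the 19 WT members without it lay in the main cluster. The values are a description. Members with a Coch UMI numbered 64 KO and 38 WT, with median depths of 9092.5 and 4681.5 UMIs, and members without one numbered 25 and 19, with 7665 and 4691 UMIs. There is no outside measure to set the counts against. Of 2275 genes compared, 64 were at least 2-fold higher with Coch in both libraries (2.81%) and 34 lower (1.49%). Ncam1, a neural cell adhesion molecule, had 123 and 240 CPM with Coch in KO and WT cells, against 13.6 and 10.6 CPM without it. Jup (the junction protein plakoglobin), Gjb1, Aldh1a7 and Klrb1a were also higher with Coch, with log2 ratios between 2.08 and 2.80 in the KO library. Atp8b1, a lipid flippase, had 53.1 and 68.6 CPM with Coch in KO and WT cells, against 316 and 286 CPM without it, and Gab1, Ldb2, Ahnak, Txn1 and Ubash3b were lower as well.

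Ncmap followed the same split, with 603 and 817 CPM in KO and WT members that had all 3 rule genes, and 69.9 and 206 CPM in KO and WT members of the main cluster without Coch. Etv1 was nearly even over it, at 618 and 643 CPM in KO and WT members with all 3 genes, and 543 and 504 CPM in those of the main cluster without Coch. The 10 members outside the main cluster had 0 UMIs of Apcdd1 and Nkd2. By detection of Lef1, 33 of 2278 genes were higher with it (1.45%) and 3 lower (0.132%) in both libraries. Mt2, a metallothionein, had 781 and 1088 CPM with Lef1 in KO and WT cells, against 191 and 61.6 CPM without it, in 15 KO and 12 WT members. By the rule gene with most UMIs, Sbspon led in 68 KO and 41 WT members, Coch in 1 and 7, and Lef1 in 16 and 4. The remaining members are in none of these groups and were kept among the other members in what follows. Ntrk2, the receptor for the neurotrophin BDNF, had 910.0 and 801 CPM in KO and WT members led by Lef1, against 341 and 275.5 CPM in the other KO and WT members, and Cemip2, a hyaluronidase of the cell surface, had 1435 and 756 CPM, against 341 and 259 CPM. Rnf217, Pxn and Tsc22d2 were the next furthest in members led by Lef1, and Dgkb, Gtf2h5, Spcs1, Dek and Tnfrsf19 in those led by Sbspon.

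Between the libraries, the share of Sbspon/Coch/Lef1 cells differed by less than counting error. They made up 0.504% of KO barcodes, with a Clopper-Pearson 95% interval of 0.405 to 0.620%, and 0.586% of WT barcodes, with one of 0.444 to 0.758%, a log2 ratio of -0.22 with an interval of -0.71 to 0.29. Because KO barcodes were deeper, the rule was also applied after thinning every barcode to 2000 UMIs, which gave 0.465% (0.359 to 0.594%) and 0.539% (0.383 to 0.736%). The KO denominator held 2417 barcodes of a cluster with 0 WT barcodes.

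Igf1 (ENSMUSG00000020053), the growth factor that the series title names, was lower in the KO cells than in the WT cells. It had 48 UMIs and 58.2 CPM in the KO cells (42.9 to 77.2) and 52 UMIs and 193 CPM in the WT cells (144 to 253), a log2 ratio of -1.65 with an exact conditional binomial interval of -2.33 to -1.14. In fibroblasts the levels were 427 CPM in the KO library and 394 CPM in the WT library, a log2 ratio of 0.11. Few barcodes carried the difference. A UMI of Igf1 was found in 23 of 89 KO and 21 of 57 WT members, the highest KO member had 6 UMIs and the highest WT member 14, which is 26.9% of the WT total, and without the highest member of each library the log2 ratio was -1.40.

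Most of the WT level came from members without Coch. Those had 94.9 CPM in KO cells and 381 CPM in WT cells, from 21 and 36 UMIs, whereas members with all 3 rule genes had 50.2 CPM in KO cells and 82.5 CPM in WT cells, from 24 and 10 UMIs. Limited to members with all 3 genes the log2 ratio was -0.66, and with every barcode thinned to 2000 UMIs it was -2.35. The rest of the main cluster held 941 CPM in the KO library and 967 CPM in the WT library, so other cells near these in the clustering had more Igf1 in both libraries. Among endothelial barcodes, 3.14% in the KO library and 4.52% in the WT library had an Igf1 UMI. These shares were not thinned, and the median depths were 5011.5 UMIs in KO and 2979.5 UMIs in WT endothelial barcodes. Whether free RNA or the mix of members takes part in the KO to WT difference was not tested. The labels do not say whether Igf1 is the altered gene. If it is, 3' tags may lie outside the altered segment, which was not tested.

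Over all genes the KO to WT comparison rested on few molecules. Of 4193 genes past the floors (50 CPM in 1 library and 40 UMIs over both), 244 were at least 2-fold higher in KO cells (5.82%) and 142 at least 2-fold lower (3.39%), and with median-of-ratios scaling these counts were 306 and 106. In fibroblasts 124 of 4125 genes were higher (3.01%) and 51 lower (1.24%), with more barcodes behind each value. Of the 386 genes apart by 2-fold in the Sbspon/Coch/Lef1 cells, 186 had over 20% of their UMIs of a library in 1 barcode, and the genes named next leave those out. That limit also removes genes close to 0 in 1 library. Thinned to 2000 UMIs per barcode, the counts were 91 and 51.

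Maff, a small MAF transcription factor, led the 14 genes furthest higher in the KO cells. It had 383 CPM in KO cells and 37.1 CPM in WT cells, a log2 ratio of 3.20 (2.47 to 4.44), and 143 and 54.6 CPM in KO and WT fibroblasts. Ifrd1, a transcriptional co-regulator, was the most abundant of the 14, with 3864 CPM in KO cells and 1266 CPM in WT cells, a log2 ratio of 1.61 (1.45 to 1.77), against 0.04 in fibroblasts. It had a UMI in 86 of 89 KO and 49 of 57 WT members. F3, tissue factor, the starter of coagulation, had 683 CPM in KO cells and 249 CPM in WT cells, a log2 ratio of 1.44 (1.09 to 1.84), against 0.70 in fibroblasts.

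Tmcc3, with 292 CPM in KO cells and 78.0 CPM in WT cells, had a log2 ratio of 1.84 (1.26 to 2.62), against -0.38 in fibroblasts. Stk40, a pseudokinase, Capn2, a calcium-activated protease, Spsb1, Apba1, Baiap2, Sbno2, Csrnp1, Zbtb1, Sdk2 and Arl13b, a GTPase of primary cilia, completed the 14, with log2 ratios from 1.42 to 1.99. In fibroblasts the log2 ratios of the 14 ranged from -0.38 to 1.32, with a median of 0.19. The difference between the cells and the fibroblasts was not tested, since each has 1 library per genotype.

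Genes lower in the KO cells were led by Fbxo32, the ubiquitin ligase atrogin-1, with 55.8 CPM in KO cells and 182 CPM in WT cells, a log2 ratio of -1.62 (-2.32 to -1.09), against 0.04 in fibroblasts. Rgs2, a regulator of G-protein signalling, had 480.4 CPM in KO cells and 1222 CPM in WT cells, a log2 ratio of -1.34 (-1.56 to -1.13), and 37.1 and 30.6 CPM in KO and WT fibroblasts, so it was also far higher in these cells than in fibroblasts. The rest included Ndufa5 and Ndufb2 of respiratory complex I, Atp5j of ATP synthase, Tomm6 and Tomm7 of the mitochondrial import pore and the proteasome subunit Psma4, with log2 ratios from -1.58 to -1.24. These genes had log2 ratios from -0.77 to 0.04 in fibroblasts. Erlec1, Mob3b, Ypel3, Hmgb2 and Cetn2 were also lower.

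**Figure D5:**
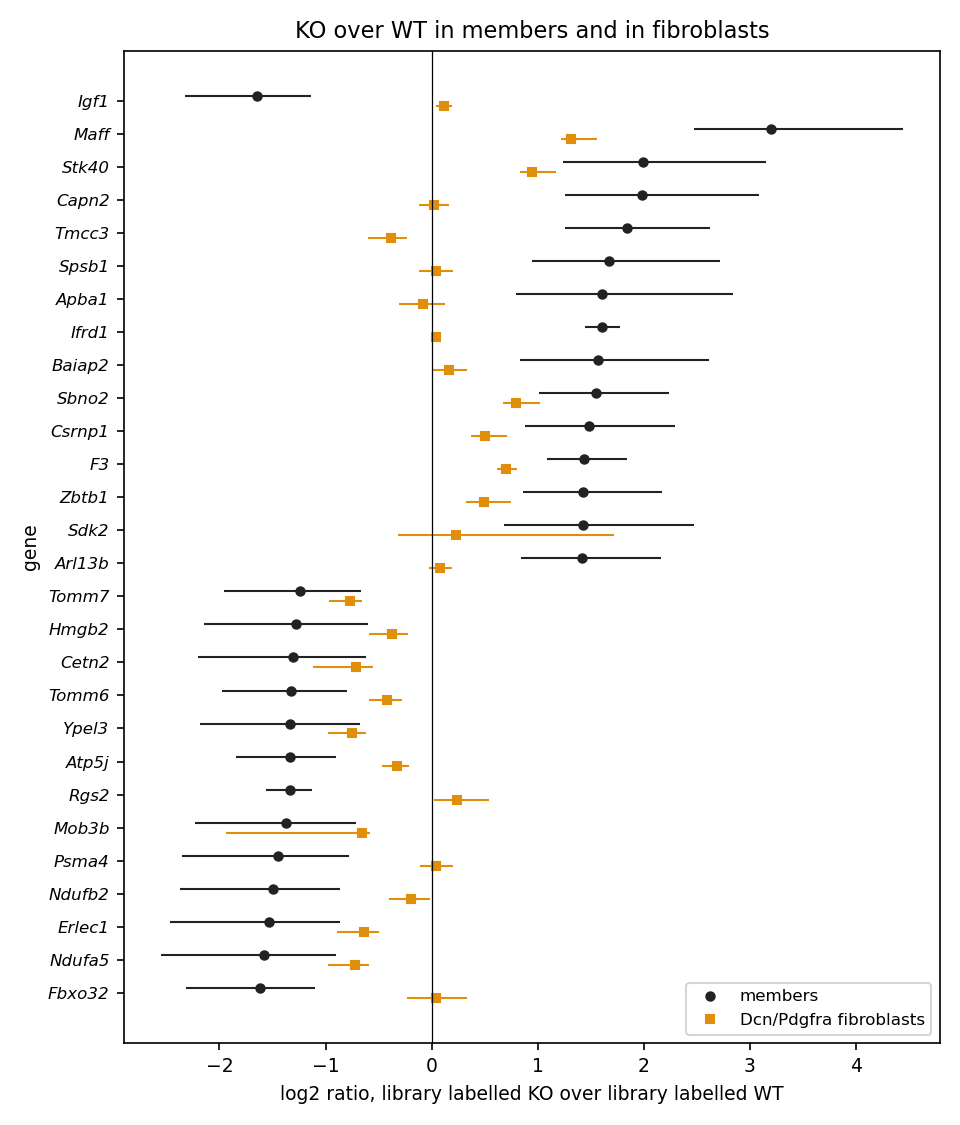
Log2 ratio of the KO library over the WT library (x axis) for Igf1 and 27 of the 28 genes named by rule, in members (black circles) and in Dcn/Pdgfra fibroblasts (orange squares). Points use CPM + 5, and lines are exact conditional 95% intervals from the counts alone, for counting error only; members have wider intervals because they hold 146 barcodes, against 1804.

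By gene list, the KO and WT cells are read against the 5.82% of all genes that were higher and the 3.39% that were lower, and lists of this size cannot be told apart from those shares. Of 8 WNT targets past the floors 0 were 2-fold apart, with a median of 0.18, and Apcdd1 had a log2 ratio of -0.10. Of 5 neurotrophic genes 0 were 2-fold apart, with a median of -0.37, while Rspo1, at 65.5 CPM in KO cells and 141 CPM in WT cells, was the 1 of 8 WNT receptors and co-factors that was lower. Of 10 IGF axis genes only Igf1 was lower and 0 were higher. Col3a1 was the 1 of 9 fibrillar collagen genes that was lower, with log2 ratios of -1.06 in these cells and -1.05 in fibroblasts, and Fbn2 was higher, with 1.08. Of 22 dissociation stress genes 1 was higher and 0 lower, with a median of 0.12 in these cells and 0.10 in fibroblasts. The higher one was Fosl1, a partner of Jun in the factor AP-1, with 74.0 CPM in KO cells and 22.3 CPM in WT cells, a log2 ratio of 1.53, against 2.61 in fibroblasts, and 1 WT member held 50% of its WT UMIs. Kcnk2, a potassium channel, had 106 CPM in KO cells and 249 CPM in WT cells, a log2 ratio of -1.20, against -0.95 in fibroblasts.

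Chemokines and cytokines had 2 higher and 3 lower of 8. The 3 lower ones, Ccl2, Ccl11 and Cxcl1, lay in few barcodes. Of the Ccl2 UMIs, 98.0% in KO cells and 98.0% in WT cells lay in 1 barcode. For Ccl11 these shares were 70.3% and 54.7%. Smooth muscle markers were higher in KO cells (3 of 3 past the floors, median 3.65) and myofibre markers lower (5 of 5, median -3.86). Single barcodes weigh on both lists, and far more on the smooth muscle markers than on the myofibre markers. A single KO member held 89.7% of the smooth muscle marker UMIs, a single WT member held 46.3% of the myofibre marker UMIs, and at least 2 myofibre markers were found in 30.3% of KO and 15.8% of WT members. Without the barcode of each library with the most muscle marker UMIs, 235 genes were higher and 140 lower, and the log2 ratio of Igf1 was -1.64. List medians at least 2-fold apart between KO and WT then numbered 1, against 2 with all members.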

How the data were processed

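Single-cell 3′ RNA libraries of KO and WT mouse tibialis anterior muscle, 1 of each, were compared. The authors deposited raw UMI counts per gene and barcode, made with Cell Ranger 9.0.0 for KO and 8.0.0 for WT per the file headers, while the submitters' processing notes give 9.0.0 and mm10 for both. The KO library held 101570863 UMIs in 19531 barcodes (median 4010 per barcode) and the WT library 38014703 UMIs in 11360 barcodes (median 2688.5), none under 500 UMIs. Of 33696 genes listed, 52 with duplicated symbols were left out of the counts of genes.

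Counts were summed over each set of barcodes and scaled to CPM, and log2 ratios used a pseudocount of 5 CPM. Intervals are exact Poisson, Clopper-Pearson or conditional binomial at 95%, from scipy 1.17.1, and treat UMIs as independent, so they cover counting error only. Barcodes were clustered with scanpy 1.11.5 and leidenalg 0.10.2 (2000 variable genes without the marker genes, 30 components, 20 neighbours, resolution 1). Scrublet called 741 KO and 158 WT barcodes doublets, 4.20% and 1.62% against 7.06% and 3.89% anticipated from the load, and these were kept. Ratios and intervals were also computed on simulated independent counts. Those counts had no spread between barcodes, so they check the calculation and not how well the intervals hold for these data. Other software was Python 3.11.15, numpy 2.4.6, pandas 2.3.3 and matplotlib 3.10.9.

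Genes named were the 25 highest and 20 lowest against fibroblasts with at least 50 CPM, the 14 highest and 14 lowest in KO over WT with at least 100 CPM, 4 per gene list in each comparison, and 5 for each rule gene by which was highest. Mitochondrially encoded, ribosomal protein, haemoglobin and unnamed (Gm and Rik) genes, and genes with over 20% of a library's UMIs in 1 barcode, were left out of this rule. Some genes that fall under it are not reported here. Other genes, and the splits by Coch or Lef1 detection, were chosen after their values were seen, many of them so that the count of a list can be followed. The members and the 45 gene lists were chosen with earlier results of these data known. The genes that choose the members and the fibroblasts were left out of the lists.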

Additional observations from a re-analysis of the deposited data

How the results depend on the processing

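The values were recomputed under 14 other settings and under 3 more chosen after seeing the data. Of 4056 comparisons of a gene or list taken as 2-fold apart with an alternative, 28 changed sign. These comparisons were not limited to the genes counted as higher or lower above. Acta2, Myh11 and Sfrp5, which did not pass the floors against fibroblasts, were among those that changed sign. Smaller shifts were more frequent. Over all gene and list values compared, including those under 2-fold, 518 were marked as moved and 8373 as the same. No paired analysis was possible because there is 1 library per genotype and no test was run, and no replicate was left out for the same reason.

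The share of barcodes that met the rule was 0.649% in KO and 0.772% in WT with strict quality limits, and 0.278% and 0.257% with all 3 genes required. Against fibroblasts the counts ranged from 418 to 770 higher and from 440 to 815 lower, with the lowest at a pseudocount of 20 CPM and the highest with no floor. List medians at least 2-fold from 0 numbered 19 as reported and 11 with no floor. Between KO and WT, 141 genes were higher and 84 lower with a pseudocount of 20 CPM, 954 and 1164 with no floor, and 91 and 51 after thinning to 2000 UMIs. List medians 2-fold apart between KO and WT were 2 as reported, 1 with at least 5 marker UMIs, without Scrublet calls, in the main cluster alone, with Dcn and collagen UMIs required or without the barcode highest in muscle markers, 4 with no floor and 0 after thinning. The log2 ratio of Igf1 was -0.66 with all 3 genes and -2.35 after thinning, and lay between -1.71 and -1.28 otherwise.

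Against fibroblasts the median log2 ratio of ion channels was -0.13 with all 3 genes, -0.08 with no floor and -0.07 after thinning, and with no floor that of WNT ligands was -0.21 and that of hedgehog genes -0.06. With all 3 genes required, Gjb2 was at -0.57, Il33 at -0.36, Itgb4 at -0.03 and Sfrp5 at -1.71. In the main cluster alone Gjb2 was at -0.41 and Sfrp5 at -1.71, and Sfrp5 was at -0.14 after thinning. Acta2 and Myh11, which lay mainly in 1 KO barcode, were at -0.26 and -1.28 with at least 5 marker UMIs, -0.18 and -0.89 with all 3 genes, -0.21 and -0.34 in the main cluster alone, -0.23 and -0.31 with Dcn and collagen UMIs required, and -0.20 and -0.21 without the barcode highest in muscle markers. Between KO and WT, Acta2 was at -0.29, Ccl2 at 0.50 and Cxcl1 at 1.90 with all 3 genes. Myh11 was at -0.52 in the main cluster alone, -0.62 with Dcn and collagen UMIs required and -0.27 without the barcode highest in muscle markers. The cause of these differences was not tested.

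The 57 WT members held fewer UMIs than the KO members, so many genes under 100 CPM rest on few molecules, and differences between animals cannot be told apart from differences between genotypes.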
